A study of Arabidopsis thaliana with 32 samples.

Results

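The loci described here lie around the centromeres of chromosomes 1 and 5 of Arabidopsis thaliana. They were chosen by their locus identifiers alone, from AT1G35500 to AT1G44100 and from AT5G28000 to AT5G36500. These ranges held 1470 of the 30385 loci measured, 595 on chromosome 1 and 875 on chromosome 5. They are set against the other 12976 measured loci of the same chromosomes. Whole seedlings of the sahh1 mutant and of the Columbia wild type were compared at ages of 1, 4, 7 and 10 days, with 4 single-colour arrays for each genotype at each age. SAHH1 encodes S-adenosylhomocysteine hydrolase. The kind of mutation in the sahh1 line is not given in the sources used here.

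Chromatin around plant centromeres is largely heterochromatin, rich in transposable elements and their remnants, with functional genes scattered between them. DNA methylation and histone methylation help to keep these elements silent. Both reactions use S-adenosylmethionine as methyl donor and release S-adenosylhomocysteine, which inhibits the methyltransferases until the hydrolase removes it.

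The reference annotation (RefSeq, TAIR10.1), matched by locus tag, classed 1077 of the 1470 pericentromeric loci (73.3%) as pseudogenes, 74 of them as transcribed pseudogenes. Of the other loci of the 2 chromosomes, 617 (4.75%) were pseudogenes. The pericentromeric ranges further held 383 protein-coding loci, while 10 loci had no match. Only 108 pericentromeric loci (7.35%) carried a gene symbol, against 37.9% of the other loci. The annotation has no separate class for transposable element genes, so some of the pseudogenes may be such genes. The sources did not state the build on which the arrays were designed, so loci are placed by chromosome and identifier order. Each array value is 1 normalized intensity for a locus, given here as log2. Whether repeated copies of an element share probe sequence was not examined, so signal at a repetitive locus may come from several copies.

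Array 1 resembled array 2, and array 3 resembled array 4, more closely than the arrays of the other pair in each of the 8 groups. Each pair was therefore averaged, which left 2 samples per group. The labels do not say whether samples came from separate cultures, so p-values measure the spread between these samples only. Over the brighter loci the samples of sahh1 day 4 stood apart: their SD between samples was 0.686 log2 units, against 0.16 to 0.313 in the other 7 groups. Over the members of the ranges the gap was smaller, with an SD of 0.599, against 0.335 in wild type day 4 to 0.515 in sahh1 day 7. The limma fit used below pools the spread of all 8 groups at each locus. Its SEs and p-values at day 4 thus do not measure the day 4 spread alone. Arrays of day 1 had median intensities of 995 to 1054, those of day 4 had 449 to 493, those of day 7 had 1793 to 1945 and those of day 10 had 956 to 982, so levels are compared between genotypes within an age. SAHH1 itself, listed as HOG1 in the annotation, was lower in sahh1 at day 1 (difference of -1.26 ± 0.23 log2 units, SE, limma adjusted p = 0.0117) and at day 4 (-1.53 ± 0.23, adjusted p = 0.0144). At days 7 and 10 its differences were -0.48 and -0.77 and did not pass the test. RBCS1A, the small subunit of Rubisco and a marker of green tissue, was bright in every sample, at 15.65 to 15.99. The second green marker, the chlorophyll-binding protein gene CAB2, read only 3.22 to 6.76, a low signal in every sample. Whether its probes report its transcript was not examined.

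At every age more pericentromeric loci were called higher than lower in sahh1, and the count was largest at day 1. At day 1, 158 members of the ranges were called higher (10.7%), against 2.16% of all loci measured. Calls rest on limma with 1 mean per group, with p-values adjusted by Benjamini-Hochberg over all 30385 loci and called under 0.05. At day 4, 17 members were called higher (1.16%, against 0.78% of all loci). At day 7 there were 30 (2.04%, against 0.563%), and at day 10 there were 50 (3.4%, against 0.823%). Few members were called lower: 3 at day 1 (0.204%, against 0.296% of all loci), 2 at day 4 (0.136%, against 0.833%), 3 at day 7 (0.204%, against 0.0658%) and 5 at day 10 (0.34%, against 0.201%). In whole seedlings, a change in the number of cells of a type and a change in RNA per cell cannot be told apart.

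The counts depended on the scaling and on single samples. After quantile normalization 93 members were called higher at day 1, 11 at day 7 and 24 at day 10. Leaving out the dimmest 25% of loci gave 86 at day 1, and fitting the 2 day 7 groups alone gave 6 at day 7. At day 4, 76 members were called higher without sahh1 sample 2 and 41 without sahh1 sample 1. Without wild-type day 4 sample 1 or 2, the count was 5 or 4. Leaving out a day 1 or day 10 sample of either genotype gave 10 or 11. The day 4 split of 17 higher and 2 lower became 54 higher and 35 lower after quantile normalization over all arrays, and fitting the 2 day 4 groups alone called 0 in either direction, against 99 higher (6.73%) and 40 lower (2.72%) at an unadjusted p under 0.05 in the fit over all groups. Of all loci 8.17% were higher and 6.98% lower at that threshold, so the members had no excess there at day 4. At day 7 the higher count was 17 without sahh1 sample 2, and 19 and 15 without wild-type samples 1 and 2. At day 10 it was 31 and 28 without sahh1 samples 1 and 2, and 26 and 30 without wild-type samples 1 and 2. Without wild-type day 1 sample 2, 105 members were called higher at day 1, and leaving out any other sample moved that count by under 1.5 times. Leaving out single samples moved the lower counts to between 0 and 28 at day 4 (28 without sahh1 day 4 sample 2), 0 and 13 at day 7 (13 without wild-type day 7 sample 1) and 0 and 5 at day 10 (0 without wild-type day 10 sample 1). With day 4 left out of the fit, an alternative added after seeing the data, 152 members were called higher at day 1, 29 at day 7 and 50 at day 10.

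**Figure D1:**
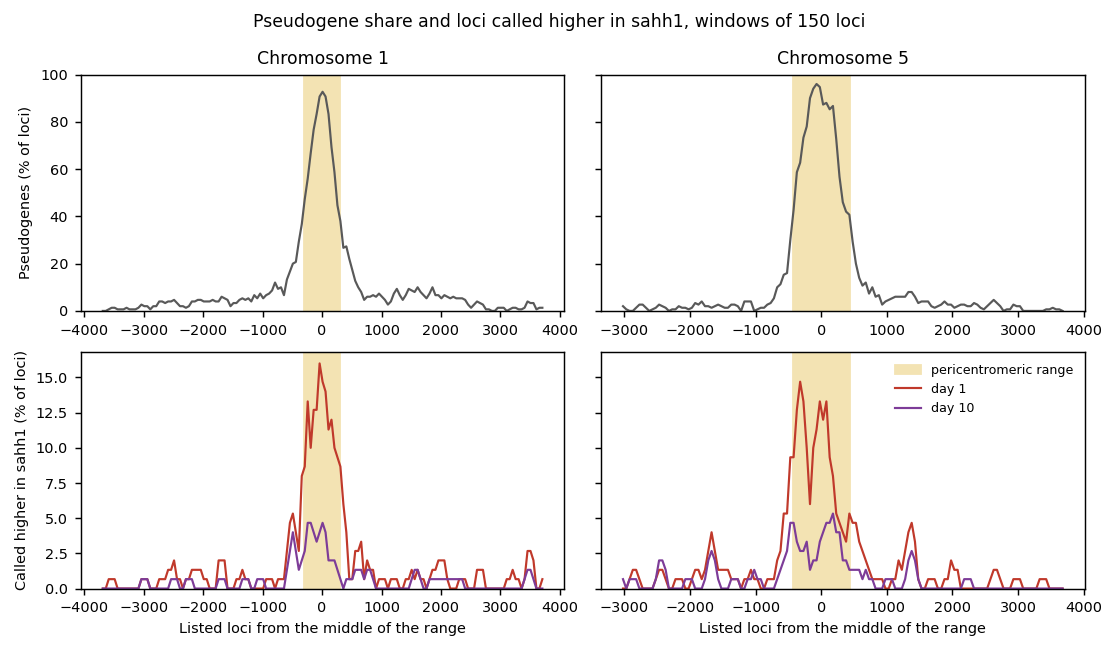
Share of pseudogenes (upper panels, % of loci) and share of loci called higher in sahh1 at days 1 and 10 (lower panels, % of loci) in windows of 150 loci along chromosomes 1 and 5. The horizontal axis counts listed loci from the middle of each pericentromeric range, which is shaded. On both chromosomes the day 1 line and the pseudogene line stand highest over the shaded range.

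Differences centred near zero over the ranges as a whole. The median difference over all 1470 members was 0.01 log2 units at day 1, 0.05 at day 4, -0.14 at day 7 and 0.07 at day 10, while the median of all loci lay between -0.02 and 0.02 at every age. At day 1 the median level of the members was 4.39 and 4.29 in the 2 sahh1 samples, against 4.2 and 4.18 in the wild-type samples. Their upper quartile was 6.75 and 6.4 in sahh1, against 5.29 and 5.34 in wild type. The upper quartile thus separated the genotypes at day 1 by more than the spread within either, while the medians lay close together. At day 7 the medians were 5.42 and 5.68 in sahh1, against 5.66 and 5.91 in wild type, so the ranges of the genotypes overlapped. The pseudogenes among the members had a median difference of -0.22 at day 7. Of all 1470 members, 509 (34.6%) had a positive difference at day 7, against 52.9% of all loci. Pseudogenes outside the ranges on the 2 chromosomes also read low, with 41.7% positive and a median of -0.09. Protein-coding members did not, with 52.7% positive and a median of 0.02. At an unadjusted p under 0.05, 227 members were lower (15.4%, against 4.14% of all loci) and 80 higher (5.44%, against 3.32%), and 3 of the lower ones were called. At that threshold 75 of the 617 pseudogenes outside the ranges and 17 of the 383 protein-coding members were lower. After quantile normalization the median over all members at day 7 was -0.08.

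Along the ranges, the calls were spread widely and did not form long blocks. When each range was divided into 5 blocks of equal size in identifier order, the share called higher at day 1 was 10.9% to 14.3% in the blocks of chromosome 1. On chromosome 5 the 5 blocks had 16%, 5.71%, 13.7%, 8.57% and 3.43%. The chromosome 5 block with 5.71%, from AT5G28910 to AT5G32071, was 89.1% pseudogenes, and that with 16%, from AT5G28000 to AT5G28900, was 60.6% pseudogenes. The share of pseudogenes and the share called higher thus did not follow the same order along chromosome 5. Of the 158 members called higher at day 1, 42 (26.6%) had a neighbour in the list that was also called higher. Beside this stands the 10.7% of members called. Most loci have a neighbour on each side, so a part of the 26.6% arises without clustering, and clustering was not tested. The annotation placed both loci of 21 neighbouring pairs, and none of these pairs overlapped. Only 2 runs of 3 consecutive loci were called higher at day 1, from AT1G36185 to AT1G36200 and from AT5G32136 to AT5G32161, and no such run was found at the other ages.

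At the edges of the ranges, AT1G35500 was the first locus inside on chromosome 1, with differences of 3.81, 0.99, 3.49 and 2.82 log2 units at days 1, 4, 7 and 10. Its outer neighbour AT1G35490 had -0.35, -0.13, -0.1 and 0.36. The last locus inside was AAP5, an amino acid permease, with differences from -0.08 to 0.15, and beyond it CYCA1;1, an A-type cyclin, had -0.6 at day 1 and 0.23 to 0.54 later. On chromosome 5, AT5G28000 inside and AT5G27990 outside the lower edge both stayed within 0.2 log2 units of zero. At the upper edge AT5G36300 stayed between -0.11 and 0.09, and AT5G36650, the next listed locus outside, had 1.96 at day 1 and -0.28 to 0.4 later.

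Pseudogenes made up most of the members called higher, and pseudogenes outside the ranges were called at a similar rate. At day 1, 144 of 1077 pericentromeric pseudogenes were called higher (13.4%), against 87 of 617 other pseudogenes of the 2 chromosomes (14.1%). At day 10 the shares were 3.71% and 3.89%, and at day 7 they were 1.95% and 2.92%. The other pseudogenes include those just beyond the identifier limits, where loci were still rich in pseudogenes and in calls. In the 150-locus windows at -492 loci on chromosome 1 and -522 on chromosome 5, both outside the ranges, 20% and 16% were pseudogenes. In each of these windows 5.33% of loci were called higher at day 1. Pseudogenes farther out on the arms were not counted apart. Among protein-coding loci, 13 of 383 pericentromeric ones were called higher at day 1 (3.39%), against 36 of 12255 others (0.294%). At day 4 it was 1.57% against 0.734%, at day 7 it was 2.35% against 0.18%, and at day 10 it was 2.61% against 0.228%. Over the 2 chromosomes together, pericentromeric and other loci thus differed in share among protein-coding loci and lay close together among pseudogenes, as counts without a test of the difference.

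**Figure D2:**
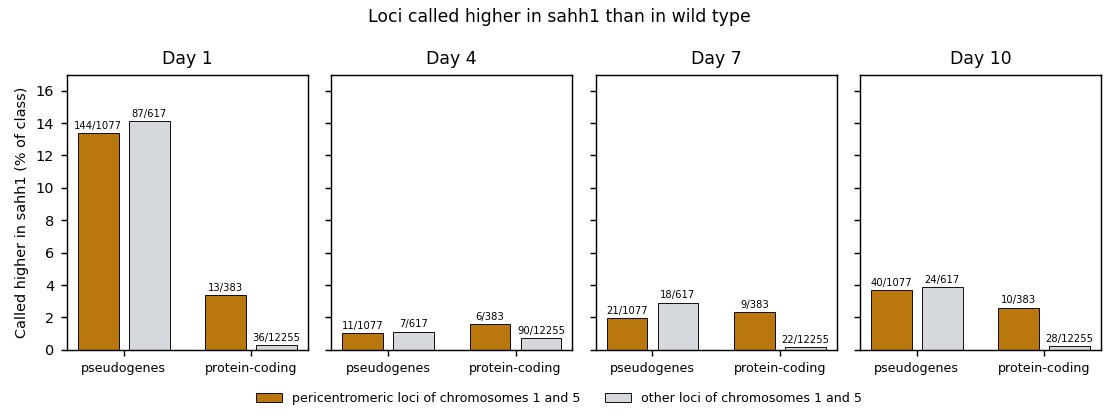
Percentage of pseudogenes and of protein-coding loci called higher in sahh1 at each age, for the pericentromeric loci (left bar of each pair) and the other loci of chromosomes 1 and 5 (right bar), with the counts above the bars. At day 1 the pseudogene bars reach 13.4% and 14.1%, and the protein-coding bars 3.39% and 0.294%.

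The 2 chromosomes contributed unequally. At day 1, 73 of 432 pericentromeric pseudogenes of chromosome 1 were called higher (16.9%), against 47 of 399 others (11.8%). On chromosome 5 it was 71 of 645 (11%), against 40 of 218 others (18.3%). The sign of the gap between pericentromeric and other pseudogenes therefore differed between the chromosomes, and this was not tested. Most of the pericentromeric protein-coding loci called higher at day 1 were on chromosome 5, with 11 of 225 (4.89%), against 0.348% of others. On chromosome 1 there were 2 of 158 (1.27%), against 0.246% of others.

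The members called higher were mostly of low to moderate mean level over all samples. That mean includes the sahh1 samples, so an increase itself moves a locus to a brighter bin and the shares by bin are a description only. When all 30385 loci were ranked by mean level and divided into 4 bins of equal size, 917 members fell into the dimmest bin and only 91 into the brightest. At day 1, 63 members of the dimmest bin (6.87%) were called higher, against 88 of 385 in the second (22.9%), 7 of 77 in the third (9.09%) and 0 of 91 in the brightest, where 0 passed an unadjusted p under 0.05 upwards in the limma fit. Within the second bin, 82 of 307 pericentromeric pseudogenes were called higher (26.7%), against 41 of 179 other pseudogenes (22.9%). Of the 158, 5 in sahh1 and 102 in wild type lay below the lower quartile of all loci at day 1. A fold change of a locus near background depends on the background left in the values, which could not be examined.

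The size of the increases was large in a part of the members. Of 158 called higher at day 1, 153 differed by at least 2-fold, 80 by at least 4-fold, 43 by at least 8-fold, 18 by at least 16-fold and 8 by at least 32-fold, with a median of 2.02 log2 units. At day 10, 47 of 50 differed by at least 2-fold and 17 by at least 8-fold, with a median of 2.24. The largest increase at day 1 was that of the pseudogene AT1G44040, which read 9.87 and 10.12 in sahh1, against 3.84 and 4.4 in wild type (5.87 ± 0.26, SE, 58.7-fold, limma adjusted p = 2.85e-07). It was near background in both genotypes at day 4, with 5.73 and 4.94 in sahh1, against 5.44 and 5.33 in wild type. Its differences at days 7 and 10 were 0.76 and 0.42 and did not pass the test, so it read high at day 1 in sahh1 and low in all other groups.

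The next 2 members by size at day 1 were also called higher later. AT5G30480, a pseudogene, read 10.32 and 10.19 in sahh1, against 4.83 and 4.13 in wild type at day 1 (5.78 ± 0.35, SE, limma adjusted p = 1.56e-06). At day 10 it read 8.9 and 9.12 in sahh1, against 5.04 and 5.49 in wild type (3.75, adjusted p = 0.000189). AT5G32566, a pseudogene, read 10.4 and 9.93 in sahh1, against 4.71 and 4.09 in wild type at day 1 (5.77, adjusted p = 1.46e-07), and 8.09 and 8.29 against 4.23 and 4.21 at day 10 (3.97, adjusted p = 4.19e-06). In both, the genotypes were apart by several times the gap between samples at days 1, 7 and 10, while at day 4 the arrays of the genotypes overlapped.

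The pseudogenes AT1G40135, AT1G36460 and AT1G40118 completed the top 6 of day 1. AT1G40135 read 10.88 and 10.63 in sahh1, against 5.2 and 5.29 in wild type, a difference of 5.51. AT1G36460 read 10.68 and 10.5, against 5.29 and 5.25, a difference of 5.32. AT1G40118 read 10.31 and 10.15, against 5.11 and 4.8, a difference of 5.27. All 3 were also called higher at day 10, by 3.22, 1.87 and 3.41. For AT1G36460 at day 10 this call was lost without any 1 of the 4 samples of that age (limma adjusted p of 0.0524 to 0.0707).

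In the day 1 set as a whole, the differences read smaller at later ages, given as a description because the set was chosen by its day 1 values. The 158 members called higher at day 1 had a median difference of 0.28 at day 4, 0.08 at day 7 and 0.69 at day 10, and 119, 87 and 140 of them were above zero. Of the 50 called at day 10, 37 were also called at day 1, which is 74% of the day 10 set and 23.4% of the day 1 set. Days 7 and 10 shared 26 members, 86.7% of the day 7 set and 52% of the day 10 set. Over all ages 174 members were called higher at least once, 150 of them pseudogenes and 23 protein-coding. Of these, 115 were called at day 1 and at no other age. The overlaps between ages were counted in members only. Without the shares over all loci, they cannot be read as a trait of the ranges.

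**Figure D3:**
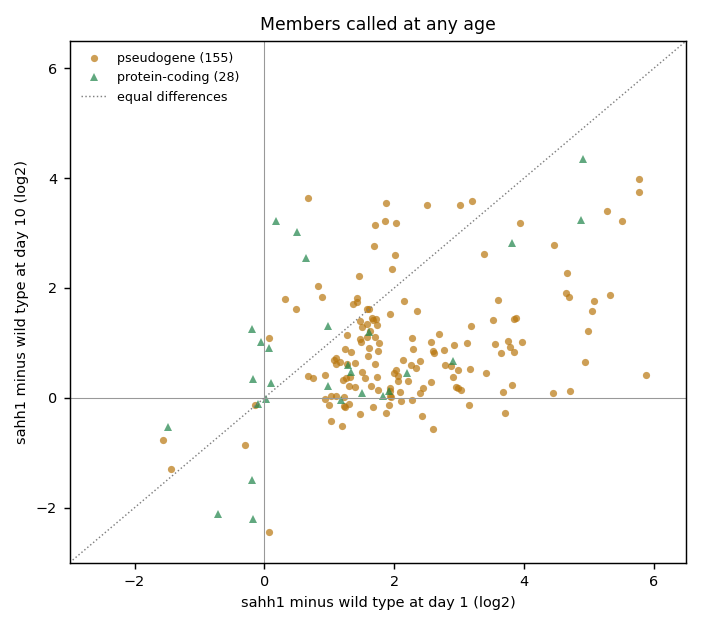
Difference sahh1 minus wild type (log2) at day 1 (horizontal) and day 10 (vertical) for the members called at any age, 155 pseudogenes (circles) and 28 protein-coding loci (triangles). The dotted line marks equal differences. Below it lie 130 of the pseudogenes and 18 of the protein-coding loci, and a few members lie near zero at day 1 and above 2 at day 10. Calls of day 1 (158 higher, 3 lower) outnumber those of day 10 (50 and 5) in this set. That choice alone favours places below the line. The mean 5th percentile of the plotted log2 scale also differed, with 3.51 at day 1 and 4.03 at day 10. The counts below the line thus do not measure a decline with age.

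Whether the genotype difference changed with age was tested with an F test over the ages after quantile normalization. It called 34 members (2.31%), against 0.615% of all loci. Of these 34, 30 were pseudogenes and 28 had their most positive difference, sahh1 minus wild type, at day 1. Among the 115 members called higher at day 1 and at no other age, 23 passed the F test, so for the rest a change with age was not shown. The count was 213 and 101 without sahh1 day 4 samples 1 and 2, and 11 to 20 without any single sample of days 1, 7 or 10.

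The 6 members with the lowest p in the F test were all pseudogenes with one pattern. AT1G42500 read 9.24 and 9.18 in sahh1, against 4.45 and 4.08 in wild type at day 1, a difference of 4.94 (30.8-fold). Its differences were 0.39, -0.42 and 0.65 at days 4, 7 and 10. On the quantile-normalized values that the F test used, they were 4.18, 0.78, -0.31 and 0.53 at days 1, 4, 7 and 10 (F test over ages, limma adjusted p = 0.0016). AT5G33220 read 7.68 and 7.65 in sahh1, against 4.06 and 4.43 in wild type at day 1, a difference of 3.42, and had differences of 0.38, -0.45 and 0.44 later. On the quantile-normalized values its differences were 2.81, 0.79, -0.3 and 0.35 (F test over ages, adjusted p = 0.000862). Both were thus separated clearly at day 1 and by under 1 log2 unit at later ages. AT1G36200, within one of the runs of 3, read 7.59 and 8.05 in sahh1, against 3.35 and 3.4 in wild type, a difference of 4.45, and its later differences were 0.02 to 0.08. AT1G42210, AT1G36080 and AT5G28826 had day 1 differences of 3.67, 3.16 and 3.54.

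**Figure D4:**
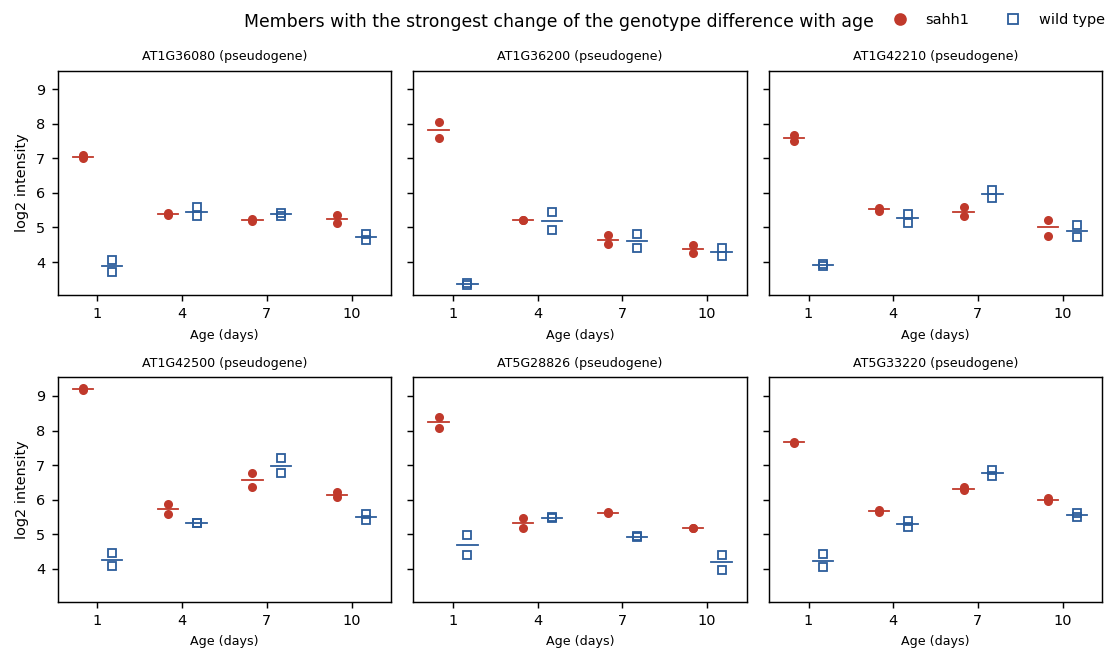
Log2 intensity (vertical) by age in days (horizontal) of the 6 members with the lowest p in the F test over ages, with sahh1 as filled circles left of wild type as open squares. Each symbol is 1 sample and each line the mean of 2. At day 1 all sahh1 samples lie above 7 and all wild-type samples at or below 5.

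A second group of members was called higher at all 4 ages. It had 7 loci: the pseudogenes AT1G35995, AT1G36680, AT1G43590, AT5G28230, AT5G28335 and AT5G33395, and the protein-coding AT5G28235. With the 2 day 4 groups fitted alone, the day 4 call of each of the 7 was lost (limma adjusted p of 0.0587 to 0.683). With the 2 day 7 groups fitted alone, the day 7 call was lost in all of them except AT5G28235 (limma adjusted p of 0.0529 to 0.157). With array weights the day 4 call was lost in AT1G35995, AT1G36680, AT1G43590, AT5G28230 and AT5G28235 (0.0636 to 0.762). AT5G28335 read 9.38 and 9.79 in sahh1, against 7.26 and 6.91 in wild type at day 1, a difference of 2.5. At day 4 it read 10.38 and 10.85 in sahh1, against 7.31 and 7.22 in wild type (3.35 ± 0.27, SE, limma adjusted p = 0.000164), the largest increase of any member called at that age. That SE pools the spread of all 8 groups. With the 2 day 4 groups fitted alone, AT5G28335 had a limma adjusted p of 0.0587. At days 7 and 10 it differed by 2.81 and 3.51. It was therefore well above background in wild type too, unlike the leading loci of day 1.

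AT1G43590 read 9.2 and 9.22 in sahh1, against 6.1 and 5.57 in wild type at day 1 (3.38), and its differences at days 4, 7 and 10 were 2.49, 2.51 and 2.62. AT5G33395 read 12.12 and 12.11 in sahh1, against 10.26 and 10.05 in wild type at day 1 (1.96), and differed by 2.89, 2.9 and 2.35 later. On the quantile-normalized values, the differences over the 4 ages were 2.46 to 2.79 in AT1G43590, 1.88 to 3.01 in AT5G33395 and 3.18 to 3.51 in AT5G28230. None of them passed the F test over ages. On the deposited values, AT1G35995 differed by 3.01, 1.29, 3.76 and 3.51 at days 1, 4, 7 and 10, and AT1G36680 by 1.69, 2.07, 2.47 and 2.76. For AT1G36680 the day 1 call was lost without sahh1 day 1 sample 1 (adjusted p = 0.279) or without either wild-type day 1 sample (0.322 and 0.0561), and the day 7 call without any single sample of that age (0.0504 to 0.0586).

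AT5G28230 and AT5G28235, which follow each other in the list, were both raised. AT5G28235 read 10.85 and 10.86 in sahh1, against 5.75 and 6.14 in wild type at day 1 (4.91 ± 0.33, SE, limma adjusted p = 3.71e-06). At day 10 it read 9.36 and 9.4 in sahh1, against 4.9 and 5.16 in wild type (4.35, 20.5-fold), the largest increase of any member called at day 10. AT5G28230 differed by 3.93, 2.15, 3.53 and 3.17 over the 4 ages. At day 4 the arrays of AT5G28235 overlapped between genotypes and its call was lost in 15 of the 16 fits that left out 1 sample, every one except that without sahh1 day 4 sample 2 (adjusted p of 0.0565 to 0.293). It was also lost in a fit with the sample number as a block, called the replicate block (adjusted p = 0.0518), and its place among the members called at all 4 ages rests on this call. The day 4 calls of AT1G35995, AT1G36680 and AT5G28230 were also lost without either wild-type day 4 sample, with adjusted p of 0.0778 to 0.169.

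**Figure D5:**
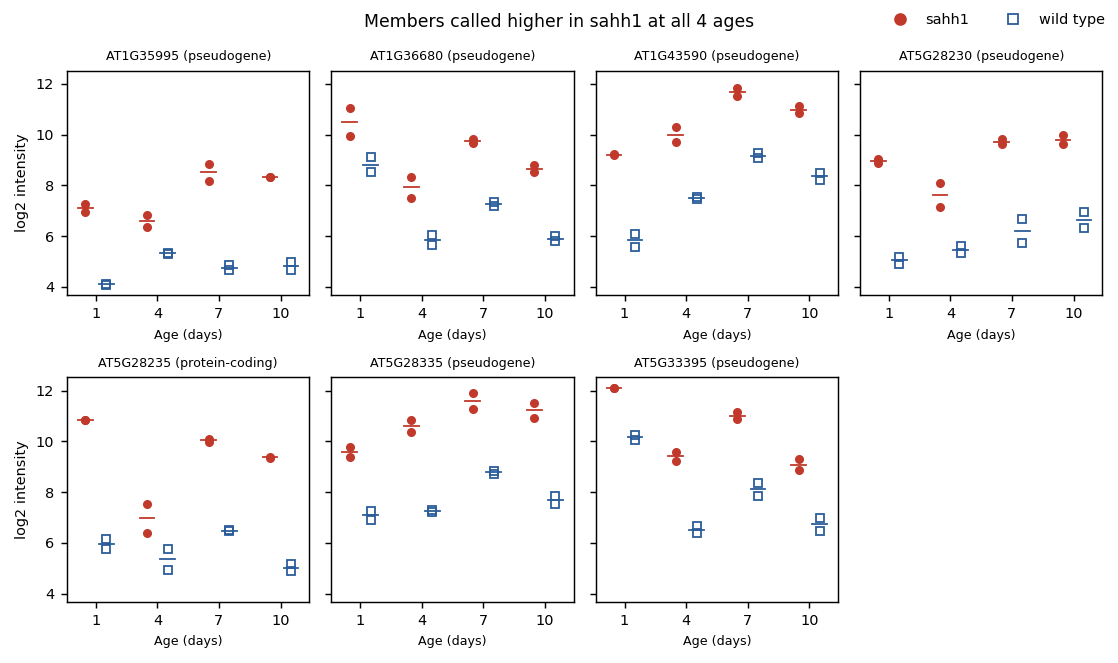
Log2 intensity (vertical) by age in days (horizontal) of the 7 members called higher in sahh1 at all 4 ages, with sahh1 as filled circles left of wild type as open squares. Each symbol is 1 sample and each line the mean of 2. The sahh1 samples lie above the wild-type samples in every panel and at every age.

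Other members were called at later ages only or at some ages only. MRU1, named for its increase in a methionine-accumulating mutant, was low at day 1 in both genotypes, with 4.31 and 4.29 in sahh1, against 3.74 and 3.85 in wild type. At day 10 it read 10.18 and 10.01 in sahh1, against 6.71 and 7.46 in wild type (3.01 ± 0.45, SE, 8.06-fold, limma adjusted p = 0.00589). Its differences at days 4 and 7 were 2.92 and 2.81 (adjusted p of 0.0145 and 0.014). MRU1 did not pass the F test over ages (limma adjusted p = 0.102). Each of its 3 calls was lost without 1 or more samples of that age, with adjusted p from 0.0541 to 0.136: without wild-type sample 1 or 2 at day 4, without sahh1 sample 1 or 2 or wild-type sample 2 at day 7, and without sahh1 sample 1 or 2 or wild-type sample 1 at day 10. AT5G35480, its neighbour, chosen for mention after its values were seen, differed by 0.17 at day 1, 1.84 at day 4, 3.07 at day 7 and 3.22 at day 10, and was called at days 7 and 10.

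The pseudogene AT1G36630 read 8.77 and 9.51 in sahh1, against 7.04 and 6.31 in wild type at day 4 (2.46), and differed by 2.4 and 3.63 at days 7 and 10. At day 1 it differed by 0.68 and did not pass the test. It passed the F test over ages (limma adjusted p = 0.0419). The protein-coding AT1G36920 read 7.54 and 7.48 in sahh1, against 4.21 and 4.23 in wild type at day 7 (3.29), and differed by 2.54 at day 10. At days 1 and 4 its arrays overlapped between genotypes, and it did not pass the F test over ages (limma adjusted p = 0.0873). AT1G35500, the edge locus, was called at days 1, 7 and 10, and at day 4 had 0.99 (adjusted p = 0.0573). Among pseudogenes, AT5G33251 differed by 3.19, 1.39, 3.29 and 3.58 at days 1, 4, 7 and 10, and AT5G28845 by 1.88, 0.4, 1.61 and 3.54. The day 7 call of AT5G28845 was lost without any single sample of that age (adjusted p of 0.0536 to 0.146).

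Lower calls were few. The protein-coding AT5G35940 read 8.31 and 7.22 in sahh1, against 9.92 and 9.85 in wild type at day 10 (-2.12 ± 0.31, SE, limma adjusted p = 0.0052). It also fell at day 4 (-1.82) and day 7 (-1.63), and each of these calls was lost without single samples. The day 10 call was lost without wild-type day 10 sample 1 (adjusted p = 0.0612), and the day 4 call without wild-type day 4 sample 1 or 2 (0.106 and 0.132). The day 7 call was lost in 13 of the 16 fits that left out 1 sample, among them those without sahh1 day 7 sample 1 or 2 (0.221 and 0.169) and wild-type day 7 sample 2 (0.356), and with the replicate block (0.065). EXT13, an extensin of the cell wall, read 10.13 and 9.74 in sahh1, against 12.47 and 11.81 in wild type at day 10 (-2.2 ± 0.44, adjusted p = 0.0418), a call lost without any 1 of the samples of that age (adjusted p of 0.0897 to 0.377) and with the replicate block (0.0604). The root hair expansin EXPA7, a marker of root epidermis outside the ranges, was lower at day 4 (-1.44, adjusted p = 0.0329) and day 10 (-1.95, adjusted p = 0.00444). Of the other markers, TIP2;3, a root aquaporin, was lower at day 4 (-2.73, adjusted p = 0.00303). CRU2, which encodes a cruciferin of the seed, was lower at day 1 (-1.73, adjusted p = 0.00246), while the oleosin gene OLEO1 differed by 0.12 at that age. The other differences of these markers did not pass the test. The part of tissue composition in the results was not tested.

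The pseudogene AT5G35777 read 7.02 and 8.14 in sahh1, against 10.4 and 9.64 in wild type at day 10 (-2.44 ± 0.42, SE, limma adjusted p = 0.0147), the largest decrease among members. This call was lost without sahh1 day 10 sample 1 (adjusted p = 0.144) or wild-type day 10 sample 1 (0.191). At day 7 it differed by -2.17 (adjusted p = 0.0464), a call lost without sahh1 sample 1 or 2 or wild-type sample 1 of that age (0.14 to 0.339) and with the replicate block (0.0738). At day 1, AT1G43250 (-1.57), AT5G28420 (-1.48) and AT5G28415 (-1.44) were lower. AT1G43250 read 4.74 and 5.31 in sahh1, against 6.75 and 6.43 in wild type, so the samples did not overlap. Its call was lost without sahh1 sample 1 (0.0958) or wild-type sample 1 (0.0976), and that of AT5G28415 without any single sample of day 1 (0.0714 to 0.499). AT5G33370 at day 4 (-1.95), AT1G43775 at day 7 (-1.42) and AT1G35625 at day 10 (-1.49) had adjusted p of 0.0364, 0.0498 and 0.0363, and each was lost without single samples of that age: wild-type sample 1 or 2 for AT5G33370, sahh1 sample 1 or 2 or wild-type sample 2 for AT1G43775, and any of the 4 for AT1G35625.

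The ranges also hold genes with known functions, described in 4 lists: plastid and photosynthesis genes (11), primary metabolism (14), transcription and signalling regulators (25), and protein synthesis, folding and turnover (7). None of these 57 members was called at any age by limma, against 2.46%, 1.61%, 0.629% and 1.02% of all loci called in either direction at days 1, 4, 7 and 10, which for a list of this size is near the same. At an unadjusted p under 0.05 there were 0 at day 1, 5 at day 4, 4 at day 7 and 6 at day 10, against 7.44%, 15.1%, 7.47% and 6.98% of all loci. Their median difference was between -0.02 and 0.01 at every age, against -0.02 to 0.02 for all loci, and single genes differed by -1.32 to 0.65. GAPB, a subunit of the Calvin cycle glyceraldehyde-3-phosphate dehydrogenase, read 14.63 and 14.81 in sahh1, against 14.74 and 14.67 in wild type at day 1. GS2, the plastid glutamine synthetase, read 15.66 and 15.62 in sahh1, against 15.68 and 15.58 in wild type at day 10. In both genes the genotypes overlapped.

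BIP1, a chaperone of the endoplasmic reticulum, differed by -0.03 to 0.12 over the ages. NIA2, a nitrate reductase, differed by -0.27 at day 1, within the range that did not pass the test (adjusted p = 0.785). BZIP60, a transcription factor of the unfolded protein response, had the lowest adjusted p among the 57 members, 0.0611 at day 4. Of 21 genes of DNA methylation and silencing, none of them in the ranges, 1 was called at each age, beside the shares of 2.46%, 1.61%, 0.629% and 1.02% of all loci. IBM1, a histone demethylase, was lower at days 1, 7 and 10 (-1.19, -1.29 and -1.08), and CMT3, a DNA methyltransferase, was higher at day 4 (0.99).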

How the data were processed

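Total RNA of 32 seedling samples was hybridised to single-colour NimbleGen arrays. The deposited table gives, for each array and locus, 1 linear normalized intensity, made with RMA per the submitters' processing notes, with no version given. The genome build is not given in the sources used here. The authors' intensities were converted to log2 here, and arrays 1 and 2, and 3 and 4, of a group were averaged to 16 samples. Genotype differences came from limma 3.58.1 (R 4.3.3), fitted over all 8 groups (8 residual and 3.16 prior degrees of freedom), on deposited values within an age and on quantile-normalized values for the F test over ages. P-values were adjusted over 30385 loci without a filter. An exact test of 2 samples against 2 cannot give p under 0.333. The number of arrays limits the precision.

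Named members are the 6 largest and 4 smallest called differences per age without overlap of arrays, members called higher at all 4 ages, the 6 of lowest p in the F test, list members called or of highest level, and loci at the edges. Members, lists and tests were chosen with earlier results of these data known. On simulated day 1 data over 30385 loci, 2, 19, 40 and 49 of 50 loci were recovered at 0.5, 1, 2 and 4 log2 units, with 7 false beside 110 true calls. Alternatives were quantile normalization, a filter on dim loci, single arrays as samples, a random block, a replicate block, array weights, an intensity trend, groups fitted alone and leaving out each sample. No sequences were used.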

Additional observations from a re-analysis of the deposited data

Results flagged for a closer look

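In 1 group, 1 array was flagged by Dixon's test: the median log2 level of the protein-coding members was 6.16 on array 3 of sahh1 day 4, outside the range of the other 3 arrays. Among independent arrays chance gives such a gap in about 1 in 20 groups. The arrays here form close pairs, so that rate does not hold for them.

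The genotype difference changed with age in 34 members by the F test. The 6 with the lowest adjusted p were AT5G33220 (0.000862), AT1G42500 (0.0016), AT1G42210 (0.00226), AT1G36080 (0.0041), AT1G36200 (0.00419) and AT5G28826 (0.00437), each with a large difference at day 1 and a small one later.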

How the results depend on the processing

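The 9 counts of members were recomputed under each alternative. After quantile normalization the higher counts were 93 at day 1, 54 at day 4, 11 at day 7 and 24 at day 10, and the lower counts 35 at day 4, 0 at day 7 and 2 at day 10. Named calls lost there, at adjusted p of 0.0512 to 0.915, were AT1G36680 and AT5G28415 at day 1; AT1G36680, AT1G40118, AT1G40135, AT1G43775, AT5G28845, AT5G30480, AT5G33251, AT5G35777 and AT5G35940 at day 7; and AT1G35625, AT1G36460 and EXT13 at day 10. Leaving out the dimmest 25% of loci gave 86 higher and 1 lower at day 1, 4 lower at day 4, 1 lower at day 7 and 14 in the F test. Counting 32 arrays as samples gave 91, 57 and 142 higher at days 4, 7 and 10, 11, 29, 87 and 15 lower at days 1, 4, 7 and 10, and 194 in the F test. A random block for the array pair gave 42 higher and 9 lower at day 4. Array weights gave 8 lower at day 1, 2 higher and 0 lower at day 4 and 69 in the F test. An intensity trend gave 4 lower at day 4 and 18 in the F test. With the groups of an age fitted alone there were 0 higher and 0 lower at day 4, 6 higher and 0 lower at day 7 and 2 lower at day 10. Deposited values in the F test gave 85. With day 4 left out of the fit, added after seeing the data, 0 were lower at day 7. The cause of these changes was not tested.

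Leaving out each sample in turn gave 105 to 170 higher and 1 to 3 lower at day 1, 4 to 76 and 0 to 28 at day 4, 15 to 33 and 0 to 13 at day 7, 26 to 64 and 0 to 5 at day 10, and 11 to 213 in the F test. Of 78 called differences of named members, 41 were called under every alternative run, 56 when any sample was left out, and 0 reversed.

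The sample numbers were not taken as pairs: deviations of same-numbered samples correlated at -0.45, 0.11, 0.63 and -0.06 over all loci at days 1, 4, 7 and 10, so they moved together at day 7 and not at every age. The fit with a replicate block gave 11 higher at day 4 and 21 in the F test, and left the other 7 counts within 1.5 times. With it the calls of AT5G28235 at day 4 (adjusted p = 0.0518), AT5G35777 (0.0738) and AT5G35940 (0.065) at day 7 and EXT13 at day 10 (0.0604) were lost, and no other named call.

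With 2 samples per group, changes of 2-fold or less were mostly missed in the simulated data, with 19 of 50 recovered at 1 log2 unit. The simulation gave each locus the same spread in all 8 groups, unlike the measured data. Dim loci are limited by signal over background.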
